A study of Homo sapiens with 50 samples.

Results

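The serpins are a family of proteins that share one fold and are named SERPINA to SERPINI by clade. Their transcripts were taken from the deposited FPKM table as every row whose gene name is SERPIN, a clade letter from A to I and a number. The rule found 35 genes of 79112 genes and unnamed loci, carried by 218 of 239290 transcripts, and transcript values were summed per gene in each library. The rule used names only, so no measured value chose the members. Of the 34 described, 16 belong to the plasma clades A, C, D, F and G, 13 to the intracellular clade B and 5 to clades E, H and I. A level of at least 1 FPKM (fragments scaled to transcript length and library size) in at least 5 libraries was needed for testing, and 21 of these serpins reached it, 13 plasma, 5 clade B and 3 others, among 24222 genes in all.

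All libraries came from HepaRG, 1 human hepatic cell line, in its differentiated state, in which hepatocyte-like and biliary-like cells grow side by side. Exposure ran from day 8 to day 14 in a test medium with 2% serum and 1% DMSO. The 9 treated groups received mesotrione, isoxaflutole or quizalofop-p-ethyl at 0.1 uM, 10 uM or 1 mM, and 1 group was the control. Mesotrione and isoxaflutole are herbicides that inhibit an enzyme of tyrosine breakdown, and quizalofop-p-ethyl is a herbicide that inhibits fatty acid synthesis in grasses. Each group held 5 libraries, and 49 of the 50 were compared, because 1 library of quizalofop-p-ethyl at 10 uM (replicate 5) was set aside. That library had a summed FPKM of 234900, against 541900 to 801700 in the others, 6782 genes reaching 1 FPKM, against 16996 to 20321, and about 3890000 fragments, against 7410000 to 35480000. Its SERPINA1 level was 533 FPKM, where the other 4 libraries of its group held 6895 to 7174. Whether the 5 libraries of a group stem from separate cultures is not in the labels, so a p-value here speaks only to the spread among these samples, some or all of which may be technical. All comparisons with control use the same 5 control libraries.

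Most serpins inhibit proteases by a single-use trap: the protease cuts a loop that stands out of the serpin, the loop snaps into the serpin body, and the bound enzyme is deformed. Hepatocytes secrete the plasma serpins, which hold back neutrophil elastase, clotting factors, plasmin and complement proteases, and a few of which carry hormones instead. Clade B serpins lack a classical secretion signal and guard the inside of cells, largely in epithelia and blood cells, against their own or stray proteases.

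In control cells the family was dominated by 1 plasma member. SERPINA1, alpha-1-antitrypsin, the main elastase inhibitor of blood, stood at 6428 ± 1285 FPKM (SD, n = 5) and ranked 10 among all genes and loci by mean level. It held 86.4% to 89.4% of the summed FPKM of the plasma serpins. Next in per-length level came SERPING1 (C1 inhibitor) at 342 ± 47.1 and SERPINA3 (antichymotrypsin) at 181 ± 97.4 FPKM. SERPINA7 at 85.6 ± 29.4 and SERPINF2 at 82 ± 12 FPKM did not differ beyond their spread (their means lay closer than either SD), and SERPINA6 came next at 63.2 ± 10.3 FPKM. SERPIND1, SERPINC1, SERPINA5, SERPINH1, SERPINB1, SERPINA4, SERPINE2 and SERPINB6 followed at means from 47.7 down to 12.5 FPKM. SERPINA10 and SERPINF1 stood at 8.03 and 7.24 FPKM, and SERPINI1, SERPINB8, SERPINB9, SERPINA11 and SERPINB2 at 2.94 down to 0.580 FPKM. The split of SERPINA1 among its 20 listed transcripts was unstable: the largest, with a start at position 94390693, ran from 1154 to 6972 FPKM among the 5 controls, while the gene sum ran from 5069.9 to 7903. Results are therefore given as gene sums.

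The label of the cells fitted their markers. The 10 hepatocyte markers fixed for this check summed to 13017 to 15022 FPKM in control, and none had a control mean under 0.1 FPKM. The 7 biliary markers summed to 635 to 725 FPKM, with EPCAM under 0.1 FPKM, and the 8 stellate and mesenchymal markers to 54.2 to 70.1 FPKM, with COL1A2 under 0.1. Leukocyte markers summed to 9.94 to 37.6 FPKM with PTPRC and CD163 under 0.1, and endothelial markers to 1.82 to 2.41 FPKM with 4 of 6 under 0.1.

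Promoter windows are printed for plasma members that hold the same short motif. RefSeq windows (GRCh38.p14) of the 250 bases before a transcript start were found for 27 of the 34 serpins and 17 of the 21 tested. SERPINC1, SERPINF1, SERPINF2 and SERPING1 were the tested members without one. The half-site GTTAAT, a motif known from promoters of liver genes, was searched on both strands. It stood in a window of 5 of the 11 plasma members with one and of 2 of the 16 members of clades B, E, H and I, SERPINB12 and SERPINI2, while 7.5% of 27305 genes held it in any window. Among the tested members these were 5 of 9 and 0 of 8, and the untested SERPINA9 and SERPINA12 lacked it. Counted back from the start, it covered bases 76 to 71 in SERPINA1 (its second window), 75 to 70 in SERPINA4, 88 to 83 and 76 to 71 in SERPINA7, 55 to 50 in SERPINA10, and 170 to 165, 115 to 110 and 58 to 53 in SERPINA6, the last of which lies beyond the bases shown. None of these overlapped another motif searched. A gene with several windows was counted when any of them held the motif. The tested plasma members whose windows lack it, SERPINA3, SERPINA5, SERPINA11 and SERPIND1, fell with quizalofop-p-ethyl at 1 mM too. Their log2 fold changes were -4.31, -3.48, -1.48 and -3.82, and a part of the motif in any change was not tested. For SERPINA1 and SERPINA4, whose windows lie within longer transcripts, only 30 bases are shown, and the other runs stop before the first transcript start of the deposited table. Capitals mark GTTAAT or its reverse complement, read 5′ to 3′ on the strand of the gene.
SERPINA1, chr14:94388661-94388690 (minus strand), 30 bases: ggggtgaccttgGTTAATattcaccagcag
SERPINA4, chr14:94561355-94561384 (plus strand), 30 bases: cgtagcctgtttGTTAATaattacctggtc
SERPINA7, chrX:106038739-106038977 (minus strand), 239 bases: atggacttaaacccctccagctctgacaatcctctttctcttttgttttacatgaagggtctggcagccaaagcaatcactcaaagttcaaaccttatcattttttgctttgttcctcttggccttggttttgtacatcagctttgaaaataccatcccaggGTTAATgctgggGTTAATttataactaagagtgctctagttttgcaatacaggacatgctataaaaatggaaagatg
SERPINA10, chr14:94293272-94293518 (minus strand), 247 bases: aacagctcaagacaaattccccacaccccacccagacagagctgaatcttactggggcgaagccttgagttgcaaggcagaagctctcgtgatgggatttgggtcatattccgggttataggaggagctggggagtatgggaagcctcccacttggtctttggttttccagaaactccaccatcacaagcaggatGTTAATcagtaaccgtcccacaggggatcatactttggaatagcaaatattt
SERPINA6, chr14:94323395-94323586 (minus strand), 192 bases: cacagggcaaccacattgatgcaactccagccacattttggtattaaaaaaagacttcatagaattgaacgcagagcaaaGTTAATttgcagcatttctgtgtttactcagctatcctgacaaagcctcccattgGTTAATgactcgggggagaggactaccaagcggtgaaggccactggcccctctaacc

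Other motifs were counted in the same way. The AP-1 site TGANTCA, bound by Fos and Jun proteins, stood in 0 of 11 plasma members and in 8 of 16 others, among the tested ones SERPINB2 and SERPINB8, with 8.06% of all genes holding it. The C/EBP core TTNNGNAA was found in 6 of 11 and 11 of 16, against 38.1% of all genes. The HNF4 core CAAAGTCCA (0.403% of all genes), the cyclic AMP element TGACGTCA (2.03%) and the composite TGATGCAAT (0.271%) were in none of the serpins' windows. SERPINB2 is shown as a tested member with an AP-1 match, given in capitals. It passed the filter through quizalofop-p-ethyl at 1 mM, the group in which it was high, so its rise there was fixed by the filter. SERPINB6, which also rose, holds no AP-1 site in its windows, and SERPINB8, which holds the site, did not pass in either direction. A part of the site in any change was not tested.
SERPINB2, chr18:63887455-63887699 (plus strand), 245 bases: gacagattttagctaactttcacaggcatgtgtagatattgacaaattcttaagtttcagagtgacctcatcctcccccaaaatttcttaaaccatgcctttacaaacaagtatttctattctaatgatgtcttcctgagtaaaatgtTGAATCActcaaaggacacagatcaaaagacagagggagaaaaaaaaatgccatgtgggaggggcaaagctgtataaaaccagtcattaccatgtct

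Quizalofop-p-ethyl at 1 mM lowered every plasma serpin that could be tested. All 13 fell against control, with log2 fold changes from -5.40 to -1.48 on the log2(FPKM + 1) scale, a scale that understates the change of genes near 0. The median of the 13 was -3.48, beside -0.08 over all 24222 genes tested, of which 19.8% were called lower by limma at an adjusted p under 0.05. In each of the 13, every library of quizalofop-p-ethyl lay below every control library, a separation seen downward in 14.8% of all genes. The summed plasma serpins fell from 5867 to 8841 FPKM in control to 163 to 1866 FPKM, or from 0.919% to 1.56% of all FPKM to 0.0222% to 0.328%. Hepatocyte markers moved with them: all 9 tested fell, their sum ran from 84.9 to 3613 FPKM, and albumin went from 9419.7 ± 770.1 to 945 ± 1040.5 FPKM. In bulk RNA, fewer hepatocyte-like cells and less of these RNAs per cell cannot be told apart, and the part of the marker change in the serpin results was not tested. Of the other marker lists, 3 of 5 biliary, 4 of 7 stellate and mesenchymal and 2 of 4 leukocyte markers tested fell, and 1 stellate marker rose. The endothelial and squamous epithelium lists had 1 marker tested each, and both of these fell.

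**Figure D1:**
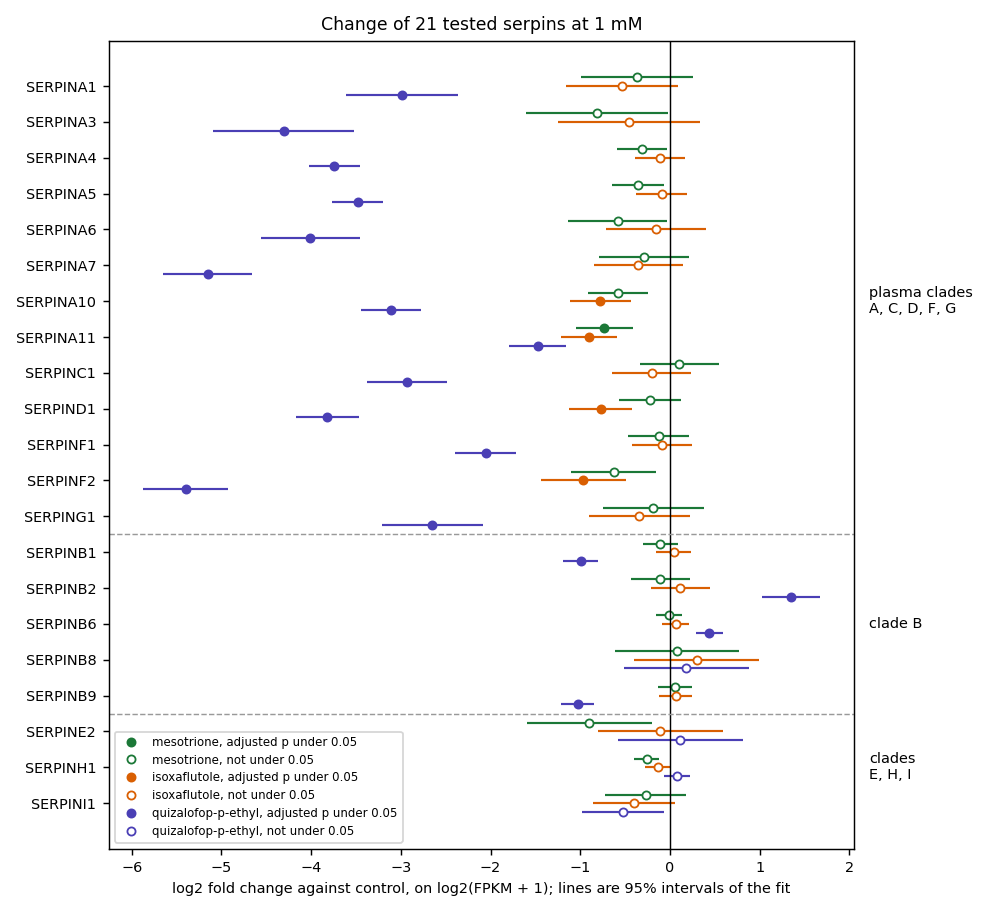
Log2 fold change of each of 21 tested serpins against control at 1 mM (x axis, on log2(FPKM + 1)), with 95% intervals of the limma fit as lines. Filled points have an adjusted p under 0.05, which holds for all 13 plasma members with quizalofop-p-ethyl, from -1.48 for SERPINA11 to -5.40 for SERPINF2.

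The inhibitors of clotting and fibrinolysis fell by wide margins. SERPINF2, alpha-2-antiplasmin, the main inhibitor of plasmin, was 84.1, 73.2, 78.6, 102 and 72.5 FPKM in control replicates 1 to 5 and 4.19, 0.769, 2.08, 0 and 0 FPKM with quizalofop-p-ethyl. The groups did not overlap, and the difference was the widest of the family (log2 fold change -5.40, SE 0.24, adjusted p = 2.19e-22). The 2 values of 0 are entries of the table for named transcripts, and unnamed transcripts of the same locus held 1.24 and 0.381 FPKM in those libraries, so they need not mean absence. With the unnamed transcripts added, the log2 fold change of SERPINF2 was -5.08, and SERPINA7 then had the widest difference. SERPINC1, antithrombin, which blocks thrombin and factor Xa, went from 35.6, 29.6, 30.8, 30.7 and 33.7 FPKM to 7.48, 3.35, 4.64, 3.16 and 0.743 FPKM (log2 fold change -2.93, SE 0.22, adjusted p = 9.12e-15). The highest treated library, 7.48 FPKM, was below the lowest control, 29.6 FPKM. SERPIND1, heparin cofactor II, a thrombin inhibitor, went from 51.3, 45.1, 45.4, 51.3 and 45.5 to 4.57, 2.02, 3.84, 2.45 and 0.713 FPKM (log2 fold change -3.82, SE 0.17, adjusted p = 8.39e-22).

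SERPINA10, which inhibits factor Xa together with protein Z, was 6.81, 7.96, 6.32, 7.89 and 11.1 FPKM in control and 0.00995, 0.0866, 0, 0.0275 and 0.0242 FPKM with quizalofop-p-ethyl. No treated library reached 0.1 FPKM, so the fold change depends on the pseudocount: -3.11 (SE 0.17, adjusted p = 2.18e-19) with 1 FPKM added and -5.98 with 0.1 FPKM added. SERPINA5, the protein C inhibitor, was 29.3, 30.8, 28.8, 32.6 and 25.5 FPKM in control and 2.52, 1.32, 1.91, 3.04 and 0.526 FPKM after exposure (log2 fold change -3.48, SE 0.14, adjusted p = 2.14e-23). Here replicate 4, not replicate 1, was the highest treated library.

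The inhibitors of leukocyte and tissue proteases followed. SERPINA1 measured 5286, 5069.9, 6323, 7903 and 7556 FPKM in control and 1651, 949, 1258, 1162 and 139 FPKM with quizalofop-p-ethyl, a 6.23-fold lower mean (log2 fold change -2.99, SE 0.31, adjusted p = 9.82e-11). Replicate 5 stood apart at 139 FPKM, and without it the log2 fold change was -2.36. SERPINA3, an acute-phase inhibitor of cathepsin G and chymase, measured 161, 127, 92.7, 181 and 345 and then 26.8, 6.78, 10.3, 6.79 and 1.12 FPKM (log2 fold change -4.31, SE 0.39, adjusted p = 2.69e-12). Its controls were spread widely for their mean, and the lowest control, 92.7 FPKM, was above the highest treated library, 26.8 FPKM. SERPINA4, kallistatin, an inhibitor of tissue kallikrein, dropped from 20.6, 20.6, 21.3, 23.8 and 15.2 to 1.09, 0.394, 0.866, 0.646 and 0.0903 FPKM (log2 fold change -3.74, SE 0.14, adjusted p = 1.30e-24). SERPING1, which controls the first complement proteases and plasma kallikrein, was 331, 292, 308, 378 and 404 FPKM in control and 153, 30.5, 77.5, 56.5 and 20.6 FPKM after exposure (log2 fold change -2.65, SE 0.28, adjusted p = 1.48e-10). Its treated libraries differed among themselves 7.40-fold, with replicate 1 the highest and replicate 5 the lowest.

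Members that do not act as protease inhibitors fell too. SERPINA7, thyroxine-binding globulin, was 43.2, 102, 115, 68.1 and 99.0 FPKM in control and 2.73, 1.36, 1.11, 1.86 and 0.207 FPKM with quizalofop-p-ethyl (log2 fold change -5.15, SE 0.25, adjusted p = 4.73e-21). Unnamed transcripts of its locus added 14.0 to 32.8 FPKM in control and at most 0.534 FPKM in the treated libraries. SERPINA6, cortisol-binding globulin, was 56.1, 59.4, 69.2, 53.1 and 78.2 and then 11.3, 1.87, 4.40, 3.14 and 0.210 FPKM (log2 fold change -4.01, SE 0.28, adjusted p = 6.04e-16), and its highest and lowest treated libraries were 54-fold apart. SERPINF1, pigment epithelium-derived factor, was 7.85, 7.20, 6.48, 7.96 and 6.73 and then 1.53, 0.569, 1.40, 1.44 and 0.293 FPKM (log2 fold change -2.06, SE 0.17, adjusted p = 1.22e-13). SERPINA11, a little-studied plasma clade member, was 2.59, 1.70, 1.09, 1.78 and 2.90 FPKM in control and 0.101, 0.0596, 0.0394, 0.0905 and 0 FPKM after exposure (log2 fold change -1.48, SE 0.16, adjusted p = 1.91e-10). All 5 treated values of SERPINA11 were at or under 0.101 FPKM.

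**Figure D2:**
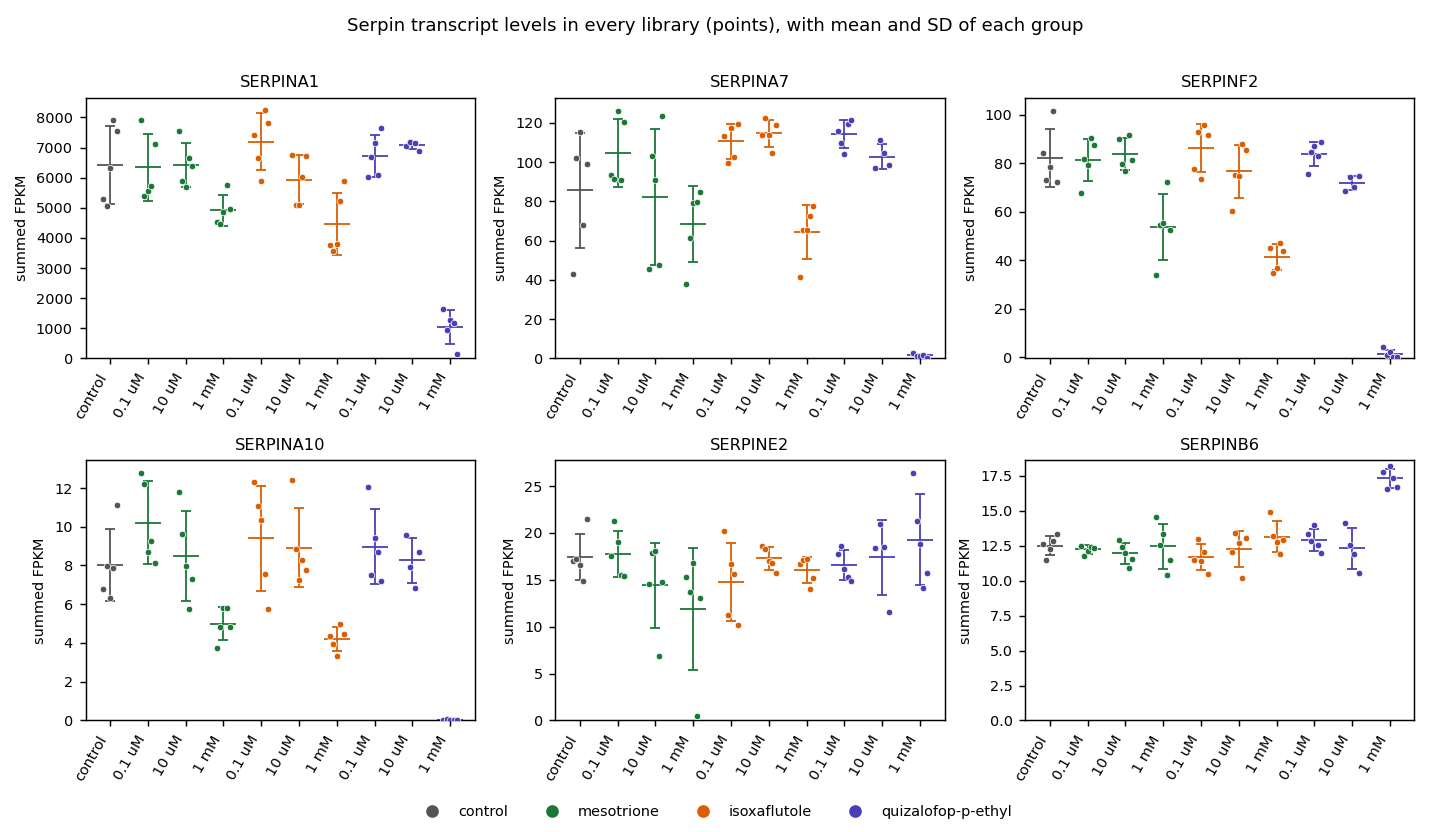
Summed FPKM (y axis) of 6 serpins in every library, by group and concentration (x axis), with points for libraries and bars for mean and SD. SERPINA1, SERPINA7 and SERPINF2 are lowest with quizalofop-p-ethyl at 1 mM, SERPINA10 is at most 0.0866 FPKM there, and 1 mesotrione library of SERPINE2 lies at 0.511 FPKM.

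The 5 libraries of quizalofop-p-ethyl at 1 mM were ordered alike by most plasma members. Replicate 5 alone was the lowest library for 11 of the 13. For SERPINF2 replicates 4 and 5 were both listed at 0, and SERPINA10 was the exception. Replicate 1 was the highest for 11 of the 13, the exceptions being SERPINA5 and SERPINA10. The order was shared in part by the other classes. Replicate 1 was the highest for 4 of 5 clade B members and 2 of 3 of clades E, H and I, and replicate 5 the lowest for 2 of 5 and 2 of 3. Replicate 5 did not stand apart in depth: its summed FPKM was 737300, 17238 genes reached 1 FPKM, and about 16980000 fragments were behind it. Albumin ran from 56.6 to 2719 FPKM over the 5 libraries. Replicate 1 belongs to the lowest of 5 runs of consecutive sample numbers in the labels, each with 1 library of every group. In 8 of 10 groups the library of that run had the highest sum of the plasma serpins other than SERPINA1, and in 9 of 10 the lowest summed FPKM of all genes. The part of the runs in this order was not tested. Leaving out any 1 library of either group left all 13 lower at an adjusted p of at most 3.41e-09.

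**Figure D3:**
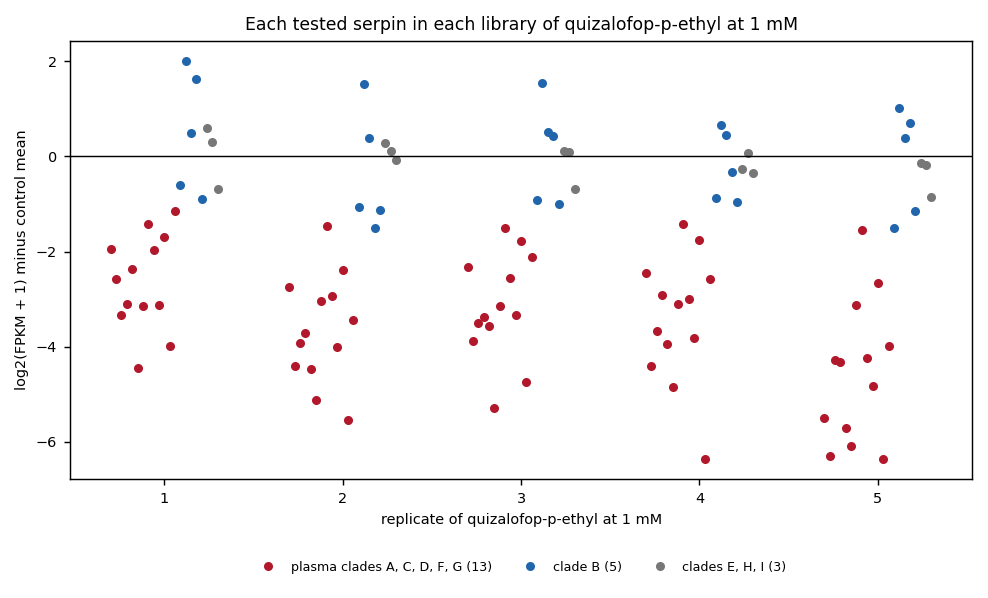
Log2(FPKM + 1) of each tested serpin minus its control mean (y axis) in each of the 5 libraries of quizalofop-p-ethyl at 1 mM (x axis), with 1 point per gene coloured by class. All points of the 13 plasma members are below 0 in all 5 libraries, and those of SERPINA1 and 10 other plasma members are lowest in replicate 5.

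Clade B did not move in one direction. Of the 5 tested members, SERPINB6 was higher, SERPINB1 and SERPINB9 were lower and SERPINB8 passed in neither direction. Over all genes 13% were called higher and 19.8% lower. SERPINB2 was called higher too, but it passed the filter through this group, so its call was fixed by the filter. The call of SERPINB6 did not hold in every setting run. The summed level of all 13 clade B genes was 40.6 to 45.5 FPKM in control and 31.9 to 49.3 FPKM with quizalofop-p-ethyl, so the ranges overlapped. The 8 markers of squamous epithelium, from which several clade B genes are known, summed to 3.95 to 8.14 FPKM in control and to 0.205 to 0.578 FPKM after exposure. Of the 8, only 1 was tested, and 6 had a mean under 0.1 FPKM in control and 7 after exposure. The part of these markers in the clade B values was not tested. SERPINB1, the leukocyte elastase inhibitor and the most abundant clade B member per length, was 23.5, 23.8, 27.2, 25.6 and 25.6 FPKM in control and 16.1, 11.5, 12.8, 13.3 and 8.18 FPKM after exposure (log2 fold change -1.0, SE 0.10, adjusted p = 2.38e-11). SERPINB9, which blocks granzyme B, was 2.71, 2.05, 2.11, 1.81 and 2.01 and then 0.688, 0.436, 0.556, 0.603 and 0.401 FPKM (log2 fold change -1.03, SE 0.09, adjusted p = 1.52e-12). For both, no treated library reached the lowest control, a separation seen downward in 14.8% of all genes. SERPINB9 lies near 0 FPKM, where the log2(FPKM + 1) scale understates a change. Its lowest log2 fold change over the settings run was -1.82.

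SERPINB6, an inhibitor of cathepsin G and other cytosolic or granule proteases, was 12.6, 11.5, 12.2, 12.8 and 13.3 FPKM in control and 17.8, 16.6, 18.2, 17.3 and 16.7 FPKM with quizalofop-p-ethyl. The groups did not overlap, a separation seen upward in 9.1% of all genes, and the rise was 1.38-fold in the means (log2 fold change 0.44, SE 0.07, adjusted p = 4.50e-06). The call was lost when unnamed transcripts were added to the locus (0.25, adjusted p = 0.185), where control replicate 4 alone held 13 FPKM of them. SERPINB2, plasminogen activator inhibitor 2, was 0.481, 0.636, 0.469, 0.450 and 0.866 FPKM in control and 5.33, 3.51, 3.58, 1.5 and 2.15 FPKM after exposure (log2 fold change 1.35, SE 0.16, adjusted p = 4.15e-09). Only 2 libraries outside this group reached 1 FPKM, so SERPINB2 passed the filter through the group in which it was high and had to differ. SERPINB8 was 3.00, 2.27, 2.11, 1.90 and 2.68 FPKM in control and 9.41, 0.179, 3.53, 1.70 and 4.48 FPKM after exposure, and its difference was 0.18 with a 95% interval from -0.51 to 0.88. Unnamed transcripts of its locus held 3.46 and 2.16 FPKM in replicates 2 and 4, the libraries with the lowest named values.

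In clades E, H and I, none of the 3 tested members described passed in limma. Of the 3, 1, SERPINI1, had an unadjusted p under 0.05, as did 9850 of all 24222 genes tested. SERPINE2, protease nexin 1, was 17.0, 17.3, 16.5, 14.8 and 21.5 FPKM in control and 26.4, 21.3, 18.8, 14.2 and 15.7 FPKM after exposure, groups that overlap, with a 95% interval of the log2 difference from -0.58 to 0.81. SERPINH1, the collagen chaperone HSP47, was 28.5, 26.8, 25.6, 27.2 and 27.1 FPKM in control and 33.8, 29.3, 28.9, 28.4 and 23.6 FPKM after exposure, again with overlap and with an interval from -0.06 to 0.22. With median-ratio scaling it passed as higher (0.16, adjusted p = 0.0489). SERPINI1, neuroserpin, was 2.94 ± 1.22 and 1.68 ± 0.611 FPKM (log2 fold change -0.53, SE 0.23, adjusted p = 0.069), and it passed when control replicate 1, control replicate 5 or treated replicate 2 was left out (adjusted p = 0.0445, 0.0241 and 0.0339). With a block for runs of sample numbers in limma SERPINI1 also passed (adjusted p = 0.00471). When the library set aside was put back in the fit, SERPINB6 no longer passed (adjusted p = 0.311), and the other 16 calls of this comparison remained.

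Isoxaflutole at 1 mM lowered 4 plasma serpins. Of the 13 plasma members tested 4 were lower, beside 1.26% of all genes, and their median was -0.35 beside -0.01. All 13 estimates were negative. SERPINA11 measured 0.434, 0.881, 0.548, 1.05 and 0.121 FPKM (log2 fold change -0.90, SE 0.16, adjusted p = 0.000219) and SERPINA10 4.38, 3.95, 3.31, 4.97 and 4.45 FPKM (log2 fold change -0.78, SE 0.17, adjusted p = 0.00397). SERPIND1 measured 18.9, 29.3, 27.3, 34.5 and 29.7 FPKM (log2 fold change -0.77, SE 0.17, adjusted p = 0.00624), and SERPINF2 44.9, 34.8, 36.7, 47.1 and 43.9 FPKM (log2 fold change -0.97, SE 0.24, adjusted p = 0.0148). In these 4, every treated library was below every control library, a separation seen in 2.4% of all genes. SERPINF2 lost its call without control replicate 4 (adjusted p = 0.0542) or isoxaflutole replicate 2 (0.052), and SERPIND1 and SERPINF2 lost it with a pseudocount of 0.1 (0.051 and 0.437). SERPINA11 lost it in a fit of the 2 groups alone (0.0868).

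SERPINA1 and SERPING1, the most abundant members described, did not pass with isoxaflutole. SERPINA1 was 3780.4, 3574, 3804, 5223 and 5899 FPKM with a difference of -0.54 (95% interval -1.16 to 0.09), and SERPING1 was 229.9, 282, 293, 302 and 239.7 FPKM with a difference of -0.34 (-0.91 to 0.22). The other carriers and inhibitors of this level, SERPINA3, SERPINA6 and SERPINA7, had means of 121, 56.5 and 64.4 FPKM and did not pass. SERPINH1 was 28.8, 24.1, 23.0, 23.1 and 24 FPKM and SERPINE2 16.6, 17.2, 17.2, 14.1 and 15.2 FPKM, both overlapping control. The 5 clade B estimates lay between 0.04 and 0.30, and none passed. Put back in the fit, the library set aside ended all 4 calls of isoxaflutole (adjusted p from 0.0504 to 0.97). Cell type markers moved as well. The hepatocyte markers summed to 5980.3 to 11973 FPKM against 13017 to 15022 in control, with 1 of 9 tested called lower and a median of -0.77. That 1, AHSG, went from 67.4 ± 10.4 to 7.19 ± 2.94 FPKM, while albumin at 5730.3 ± 1793 FPKM did not pass (adjusted p = 0.47). Stellate markers summed to 21.1 to 30.5 FPKM against 54.2 to 70.1, with 3 of 7 lower, and biliary markers to 483 to 609 against 635 to 725, with 1 of 5 lower and 1 higher. Of all 24222 genes tested 305 were called lower and 280 higher with isoxaflutole. The part of the marker changes in the serpin results was not tested.

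Mesotrione at 1 mM lowered 1 serpin, SERPINA11, beside 0.702% of all genes called lower. It measured 0.551, 0.737, 0.663, 1.26 and 0.704 FPKM, and its replicate 4 lay within the control range (log2 fold change -0.73, SE 0.16, adjusted p = 0.00781). Without control replicate 5 the adjusted p was 0.0512, in a fit of the 2 groups alone it was 0.179, and with the library set aside it was 0.372. Without mesotrione replicate 1 SERPINH1 passed too (adjusted p = 0.0402), so that 2 serpins were called. With the unnamed transcripts added to their loci 3 passed, SERPINA10, SERPINA11 and SERPINH1. SERPINH1 was 24.7, 23.2, 21.5, 21.6 and 21.2 FPKM, all below the lowest control of 25.6 FPKM (log2 fold change -0.26, SE 0.07, adjusted p = 0.0611). Such a separation was seen in 4 of the 13 plasma members, SERPINA5, SERPINA6, SERPINA10 and SERPINF2, and in 2.08% of all genes. The remaining abundant members did not pass: SERPINA1 at 4914 ± 520.4, SERPING1 at 301 ± 45.5, SERPINA3 at 94.9 ± 21.6, SERPINA7 at 68.5 ± 19.4, SERPINF2 at 53.8 ± 13.7 and SERPINA6 at 42.0 ± 7.95 FPKM. SERPINF2, SERPINA10 and SERPIND1, which fell with isoxaflutole, were compared here too. SERPINF2 measured 33.9, 54.6, 55.6, 72.4 and 52.4 FPKM, all below the lowest control of 72.5 FPKM, with a difference of -0.63 (adjusted p = 0.298). SERPINA10 measured 3.72, 4.81, 5.83, 5.79 and 4.82 FPKM, also all below control, with a difference of -0.58 (adjusted p = 0.0924). SERPIND1 measured 24.5, 44.6, 45.7, 53.4 and 41.3 FPKM, which overlaps control, with a difference of -0.22 (adjusted p = 0.77). Of the 13 plasma estimates 12 were negative, with a median of -0.36 beside -0.01. Unadjusted, 7 of the 13 had a limma p under 0.05, as did 2268 of all 24222 genes tested. The stellate markers summed to 22.6 to 36.4 FPKM against 54.2 to 70.1 in control, with 2 of 7 lower, and the biliary markers to 424 to 561 against 635 to 725, with 2 of 5 lower. The hepatocyte sum of 7308 to 14508 FPKM overlapped control, with 1 of 9 lower, and 1 of 4 leukocyte markers was lower. The part of these in the serpin values was not tested.

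SERPINE2 with mesotrione rests on 1 library. It was 15.3, 13.7, 16.8, 0.511 and 13 FPKM in replicates 1 to 5, and replicate 4 stands far below the others. In that library an unnamed transcript of the SERPINE2 locus held 6.93 FPKM, against 0 to 1.86 FPKM in the other 4 and at most 0.0984 FPKM in control. With the unnamed transcripts added, the log2 difference of SERPINE2 from control changed from -0.90 to -0.33.

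No serpin passed at the lower concentrations. Over 0.1 uM and 10 uM of the 3 compounds, 0 of 126 tests of the 21 members were called by limma and 2 had an unadjusted p under 0.05, SERPINA5 at -0.33 and SERPINA11 at 0.42, both with quizalofop-p-ethyl at 10 uM. In that comparison 1161 of all 24222 genes tested had an unadjusted limma p under 0.05. Of all genes 0% were called with mesotrione, isoxaflutole or quizalofop-p-ethyl at 0.1 uM or with the first 2 at 10 uM, and 0.00826% with quizalofop-p-ethyl at 10 uM, a group of 4 libraries here. Estimates ran from -0.33 to 0.50, the highest for SERPINA7 with isoxaflutole at 10 uM (mean 115 FPKM against 85.6 FPKM in control). SERPINA1 means at these 6 exposures lay between 5939 and 7201 FPKM, all within the control range.

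**Figure D4:**
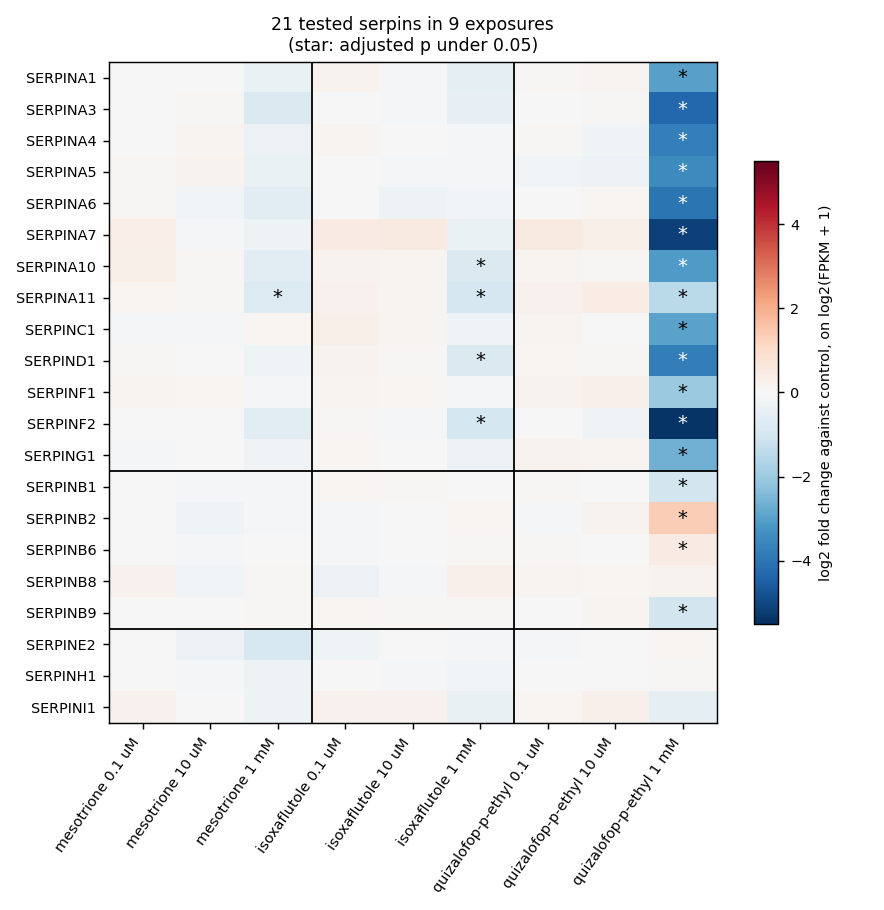
Log2 fold change against control (colour, on log2(FPKM + 1)) of 21 tested serpins (rows) in the 9 exposures (columns), with a star where the adjusted p is under 0.05. Stars stand only in the 3 columns of 1 mM: 1 for mesotrione, 4 for isoxaflutole and 17 for quizalofop-p-ethyl.

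The compounds were compared with each other at 1 mM in 3 pairs, with p-values adjusted over all genes of a pair. Between isoxaflutole and mesotrione 2 of 21 serpins had an unadjusted limma p under 0.05, as did 1628 of all 24222 genes tested. After adjustment 0 of the 21 passed, beside 0.256% of all genes called. This does not show that the 2 act alike: SERPIND1 differed by -0.55 (95% interval -0.90 to -0.20, adjusted p = 0.328). SERPIND1 passed without mesotrione replicate 1 (adjusted p = 0.0329). The second, SERPINE2, rests on the mesotrione library named above.

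Quizalofop-p-ethyl differed from both. All 13 plasma members were lower than with mesotrione and lower than with isoxaflutole, with log2 differences from -4.86 to -0.74 and from -4.80 to -0.57, beside 17.6% and 18.1% of all genes called lower. SERPINF2 differed by -4.77 from mesotrione and -4.43 from isoxaflutole, and SERPINA1 by -2.62 and -2.45. SERPINB2 and SERPINB6 were higher than with either compound, beside 12.6% and 11.7% called higher, by 1.46 and 0.45 from mesotrione and 1.23 and 0.38 from isoxaflutole. SERPINB2 had passed the filter through this group alone, so its difference here too was fixed by the filter. SERPINH1 was higher than with mesotrione (log2 fold change 0.34, SE 0.07, adjusted p = 0.000146) and isoxaflutole (log2 fold change 0.21, SE 0.07, adjusted p = 0.0165), and the second of these was lost without quizalofop-p-ethyl replicate 1 (adjusted p = 0.0927) and in a fit of the 2 groups alone (0.172). SERPINE2 was higher than with mesotrione by 1.02 (adjusted p = 0.0206), but by 0.34 without mesotrione replicate 4 (adjusted p = 0.186) and by 0.90 without quizalofop-p-ethyl replicate 1 (adjusted p = 0.0614), and with the 2 groups alone it did not pass (adjusted p = 0.274). The library set aside, put back in the fit, ended the calls of SERPINB6, SERPINE2 and SERPINH1 against mesotrione and of SERPINA11, SERPINB6 and SERPINH1 against isoxaflutole.

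Neighbouring members did not always move together. The chromosome 14 cluster (94280455 to 94624055, GRCh38 in the deposited table) holds 10 plasma clade genes, from SERPINA10 to SERPINA3, and its 7 tested genes all fell with quizalofop-p-ethyl, while SERPINA2, SERPINA9 and SERPINA12 did not exceed 0.181 FPKM in any library. SERPINA7 on the X chromosome and the SERPINF2 and SERPINF1 pair on chromosome 17 (1742836 to 1777574) fell without being near that cluster. On chromosome 6 (2832332 to 2972165) SERPINB1 and SERPINB9 fell and SERPINB6, the third gene of that cluster, rose. The chromosome 18 cluster (63476761 to 64019779) holds 10 clade B genes, of which only SERPINB2 and SERPINB8 were tested. SERPINA3, SERPINA4 and SERPINA5 lie in 1 assembled locus, as do SERPINB2 and SERPINB10, and SERPINA1 with SERPINA2, like SERPINB3 with SERPINB4, are similar in sequence, so reads could be divided between them.

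The 13 serpins not tested were at or under 0.620 FPKM in all 49 libraries. They are SERPINA2, SERPINA9 and SERPINA12 of the plasma clades, SERPINE3 and SERPINI2, and 8 clade B genes: SERPINB3, SERPINB4, SERPINB5, SERPINB7, SERPINB10, SERPINB11, SERPINB12 and SERPINB13. SERPINB11 was listed at 0 in all 49. Several of these clade B genes are known from squamous epithelium, and of the 8 squamous markers checked 6 had a control mean under 0.1 FPKM.

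Genes that work with the serpins moved in part with them under quizalofop-p-ethyl at 1 mM. Over all genes 19.8% were called lower and 13% higher there, with a median of -0.08, the background for the counts of lists that follow. Of 11 tested liver-made serine proteases of plasma, the targets of plasma serpins, 10 fell and none rose (median -2.21), among them F12, the factor that starts contact activation, from 31 ± 2.90 to 3.27 ± 2.59 FPKM, and F10, the target of antithrombin, from 12.2 ± 1.45 to 1.34 ± 0.714 FPKM. KLKB1 and C1R, targets of SERPING1, fell (log2 fold changes -2.63 and -2.44). Prothrombin, F2, went from 2.48 ± 1.62 to 1.59 ± 1.14 FPKM and did not pass. With isoxaflutole 1 of the 11 fell, beside 1.26% of all genes, F7, from 1.27 ± 0.361 to 0.403 ± 0.164 FPKM, and with mesotrione none passed.

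The cofactors and clearance receptors gave 5 lower and 0 higher of 7 tested (median -1.0), beside 19.8% and 13% of all genes. VTN, vitronectin, an adhesive protein of plasma and matrix, went from 1131 ± 127 to 87.6 ± 82.3 FPKM, and LRP1, the receptor that clears serpin and protease complexes, from 162 ± 17.7 to 87.6 ± 23.6 FPKM. PROS1 and HSPG2 fell (log2 fold changes -1.72 and -1.54). Among 10 tested cell-bound and lysosomal proteases 5 fell and 1 rose (median -0.73), the latter a share near that of all genes: CTSS and CTSH fell (log2 fold changes -1.85 and -1.67), and CTSL, cathepsin L, rose by 0.77. The plasminogen activators themselves, PLAU and PLAT, were too low to test, at 0.416 ± 0.159 and 0.299 ± 0.130 FPKM in control and 0.0923 ± 0.0937 and 0.0719 ± 0.0566 FPKM with quizalofop-p-ethyl. VTN with isoxaflutole or mesotrione differed by -0.16 and -0.03 and did not pass, and LRP1 by -0.27 and -0.37 likewise.

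Of a list of 12 liver transcription factors and cytokine signalling genes 8 fell and 0 rose (median -0.42), beside 19.8% and 13% of all genes and a median of -0.08. The 8 include IL6R, an interleukin 6 receptor chain, and STAT3, its signal carrier (log2 fold changes -0.39 and -0.34). HNF4A went from 26.6 ± 2.11 to 6.89 ± 3.40 FPKM and CEBPA from 24.8 ± 1.82 to 18 ± 2.27 FPKM. ONECUT1, FOXA3 and FOXA1 fell (log2 fold changes -3.15, -2.48 and -2.23). With isoxaflutole FOXA1 and FOXA3 fell (log2 fold changes -0.41 and -0.64), while HNF4A and CEBPA did not pass there (0.06 and 0.03) or with mesotrione (-0.05 and -0.25). Whether any of these factors acted on the serpin genes was not tested.

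The lists for folding and export of these proteins moved in both directions with quizalofop-p-ethyl, beside 13% of all genes higher and 19.8% lower. Of 12 genes of export and quality control in the endoplasmic reticulum 5 rose and 2 fell (median 0.12), the latter a share near that of all genes: EDEM1, MCFD2, SEL1L and SYVN1 rose by 0.99, 0.83, 0.80 and 0.70, and CALR and MAN1B1 fell (log2 fold changes -0.68 and -0.29). Of 11 folding partners of SERPINH1 3 rose and 3 fell (median -0.17). HSPA5, the chaperone BiP, rose from 144 ± 5.51 to 592 ± 465 FPKM, and PPIB and P4HB fell (log2 fold changes -0.64 and -0.63). Protease inhibitors outside the family fell in 12 of 15 cases and rose in 1 (median -1.27), with A2M, alpha-2-macroglobulin, from 417 ± 46.6 to 38.4 ± 36.9 FPKM, and AMBP, from 1059 ± 95.1 to 126 ± 125 FPKM. CSTB, cystatin B, an intracellular inhibitor, was the one that rose, from 30.9 ± 1.49 to 39.0 ± 2.95 FPKM.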

How the data were processed

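RNA of 50 HepaRG libraries was sequenced after ribosomal RNA depletion with a stranded kit, per the labels. Which strand setting the assembly used is not given in the sources, so overlapping antisense genes cannot be told apart. HISAT, HISAT2, StringTie and the build GRCh38 are named in the submitters' processing notes. The deposited table holds FPKM values per transcript that the authors made, for 239290 transcripts, of which 40117 carry no gene name, and 1 broken line was rejoined. In 20 of its columns 24 values are below 0 by rounding size, and these were set to 0.

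Transcript FPKM were summed per gene name, and unnamed transcripts per locus. A gene was kept if 5 or more of the 49 libraries reached 1 FPKM. The fit, by limma 3.58.1 in R 4.3.3 (trend and robust variance, no covariates), used log2(FPKM + 1) of all groups together, with Benjamini-Hochberg adjustment over 24222 genes, two-sided, at 0.05. Tables and figures were made with Python 3.11.15, pandas 2.3.3, numpy 2.4.6 and matplotlib 3.10.9, and the fit was tested on simulated data. Counts are not in the table. Depth was estimated from the most common value of FPKM times length among single-exon transcripts, taken as 1 fragment. Depth limits the precision of values near 0, for which no counting interval is given. A library of low depth (quizalofop-p-ethyl, 10 uM, replicate 5) was left out. Alternatives were a fit of all 50, unnamed transcripts added to their locus, the 2 groups alone, a block for runs of sample numbers, median-ratio scaling, a pseudocount of 0.1, no filter, and leaving out each library.

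Values of single libraries are given for serpins that passed in a 1 mM comparison or had a control mean of 50 FPKM or more. Other lists name up to 4 genes that passed in each direction, by size, and HNF4A, CEBPA, PLAU, PLAT, VTN and LRP1 whatever their result. The serpins, gene lists and markers were chosen with earlier results of these data known. F2, IL6R, STAT3 and the promoters shown, those with GTTAAT and that of SERPINB2, were chosen after their values or matches were seen. A few genes of the fit, 1 of them a serpin, are not reported here, and counts of serpins and lists leave them out.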

Additional observations from a re-analysis of the deposited data

Results flagged for a closer look

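In groups of 4 or 5 libraries, a single library was marked when its gap to the nearest other was large against the range of the group by Dixon's criterion at 95%. Of 84 groups tested, 5 were marked, and chance alone marks about 1 in 20. With quizalofop-p-ethyl at 1 mM, replicate 5 of SERPINA1 was at 139 FPKM, while the others held 949 to 1651 FPKM. With isoxaflutole at 1 mM, replicate 1 of SERPINA7 was at 41.5 FPKM beside 65.2 to 77.6 FPKM, and the same library of SERPINH1 was at 28.8 FPKM beside 23.0 to 24.1 FPKM. In that group replicate 2 of SERPINB2 was at 1.22 FPKM beside 0.514 to 0.660 FPKM. With mesotrione at 1 mM, replicate 4 of SERPINE2 was at 0.511 FPKM beside 13 to 16.8 FPKM. In the SERPINE2 library unnamed transcripts of the same locus held 6.93 FPKM.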

How the results depend on the processing

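Calls of quizalofop-p-ethyl at 1 mM numbered 17 to 18 serpins when any 1 library was left out (17 with all), 18 to 19 against mesotrione (19 with all) and 17 to 18 against isoxaflutole (18 with all). At the 6 lower exposures 0 serpins passed under any setting run. With mesotrione 1 serpin passed, with a range of 0 to 2 over left-out libraries, 0 with all 50 libraries, 0 with the 2 groups alone, 2 with median-ratio scaling and 3 with unnamed transcripts added. With isoxaflutole 4 passed, with a range of 3 to 4 over left-out libraries, 0 with all 50, 2 with a pseudocount of 0.1 and 3 with the 2 groups alone. Between isoxaflutole and mesotrione 0 passed, with a range of 0 to 1 over left-out libraries. No estimate that passed changed its direction. The median over all genes with quizalofop-p-ethyl at 1 mM was -0.11 with a pseudocount of 0.1, against -0.08. Values near 0 FPKM limit several fold changes. Those of SERPINA10, SERPINA11 and SERPINB2 were -5.98, -3.71 and 2.19 with that pseudocount. Other members moved over the settings too, among them SERPINA4, SERPINF1, SERPINF2 and SERPINB9. Their lowest log2 fold changes were -5.06, -2.87, -7.07 and -1.82, against -3.74, -2.06, -5.40 and -1.03 in the main fit.

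The labels share no replicate numbers between groups. A replicate block of sample-number runs gave 3 serpins with mesotrione, and SERPINI1 passed with quizalofop-p-ethyl at 1 mM (adjusted p = 0.00471). Correlations of deviations over all genes were weak, 0.0172 on average within a run and -0.00426 across runs, but 26 of 49 libraries were closest to their own run. The lowest run had the highest sum of plasma serpins in 5 of 10 groups, and in 8 of 10 with SERPINA1 left out. It was also highest in 5 of 10 groups for clade B and in 5 of 10 for clades E, H and I. The labels do not say what the runs stand for.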
